A study of Mus musculus with 12 samples.

Results

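The transcripts of 10 genes that carry iron into cells, store it, let it out or set its balance were measured in whole hearts of adult male mice with and without CYB5R3 in their cardiomyocytes. The genes were taken by name, and 10 of 10 were found among the 53700 genes counted. They were Tfrc, Slc11a2 and Slc39a14 for uptake, Fth1, Ftl1 and Ncoa4 for storage, Slc40a1 and Hamp for export and its control, and Aco1 and Ireb2 as iron sensors. The 6 ac-WT mice had the genotype CYB5R3wt/wt, Myh6-CreERT2, and the 6 ac-CYB5R3-KO mice the genotype CYB5R3fl/fl, Myh6-CreERT2. All 12 mice carried the Cre transgene and received tamoxifen at 10 to 13 weeks of age, at 33 mg/kg on each of 5 days, before the hearts were collected 5 days later. CYB5R3 is a reductase that returns oxidized heme iron and coenzyme Q to their reduced forms, and the comparison asked which transcripts moved once it had been removed. The Myh6 promoter drives Cre in cardiomyocytes, so the other cells of the heart kept the gene, and the RNA came from powdered frozen tissue that holds all of these cells. In such RNA, fewer cells of a type and less RNA per cell cannot be told apart.

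Cells take up iron mainly as transferrin that binds the transferrin receptor, and hold what they do not use inside shells of ferritin heavy and light chains. Ferroportin exports iron, and hepcidin, a hormone made mainly by the liver, removes ferroportin from the membrane. Much of this balance is set on the messenger RNA: when iron is scarce, the iron regulatory proteins IRP1 and IRP2 bind a short hairpin called the iron-responsive element (IRE), which blocks translation when it lies in a 5′ UTR and protects the transcript from decay when it lies in the 3′ UTR of Tfrc. Transcript counts can therefore show regulation of Tfrc through its IREs, but not the block of ferritin or ferroportin translation, which leaves the RNA in place. Cardiomyocytes use much iron for mitochondrial heme and iron-sulfur proteins, and both shortage and excess of iron harm the heart.

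The IREs are shown because they mark the transcripts that the IRPs bind. Capitals mark the bulged C and the loop, found in annotated UTRs by the motif CNNNNNCAGTGN on the transcript strand with all 5 upper-stem bases paired, G-T pairs allowed. Sequences are 5′ to 3′ from the GENCODE annotation and genome of NCBIM37 (mm9).
Fth1 5′ UTR: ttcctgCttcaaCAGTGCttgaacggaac
Ftl1 5′ UTR: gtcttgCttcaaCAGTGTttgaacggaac
Slc40a1 5′ UTR: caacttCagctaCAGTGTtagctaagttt
Tfrc element 1: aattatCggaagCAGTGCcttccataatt
Tfrc element 2: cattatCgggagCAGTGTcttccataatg
Tfrc element 3: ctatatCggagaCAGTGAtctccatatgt
Tfrc element 4: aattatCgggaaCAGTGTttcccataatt

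The motif was found in the 5′ UTR of 3 of the 10 genes and in the 3′ UTR of 1, Tfrc, which held 4 matching elements. An IRE whose stem pairs in another way would be missed by this rule, in Tfrc or in any other gene. Among all annotated genes, 33 of 19945 (0.165%) had a match in a 5′ UTR and 125 of 20007 (0.62%) in a 3′ UTR. The ferritin elements lie at chr19:10057222-10057250 on the plus strand (Fth1) and chr7:52715149-52715177 on the minus strand (Ftl1), and shared 26 of 29 bases. The Slc40a1 element at chr1:45982310-45982338, minus strand, shared 13 of 29 bases with that of Fth1. The Tfrc elements lie on the plus strand at chr16:32631305-32631333, chr16:32631684-32631712, chr16:32631749-32631777 and chr16:32631796-32631824, and any pair of them shared between 18 and 25 of 29 bases. In the other 6 genes no match to the motif with a fully paired upper stem was found in the annotated UTRs. The letters without that pairing were not searched for, so the lack of a match does not show that these genes lack an IRE.

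The libraries held between 43393183 and 53754284 counts on genes, and 17847 genes passed the filter on low counts. The ac-WT hearts of mice 2 and 3 stood apart, with TMM scaling factors of 0.570 and 0.723 against 0.988 to 1.22 in the other 10 hearts, the highest levels of cardiomyocyte markers and the lowest levels of fibroblast and macrophage markers. Cyb5r3 (chr15:82983924-83003022, minus strand) had 81.9 to 185 CPM in ac-WT hearts and 42.0 to 67.4 CPM in ac-CYB5R3-KO hearts, with no overlap (log2 fold change -1.22, SE 0.19, edgeR adjusted p = 0.0450). Of the cardiomyocyte markers, 5 of 12 were lower at an unadjusted p under 0.05 (summed level 26521 to 60588 CPM in ac-WT and 19472 to 33665 CPM in ac-CYB5R3-KO hearts). The number lower was 2 without ac-WT mice 2 and 3, 3 with total counts as the scale and 0 with 1 surrogate variable. Over all alternatives it ran from 0 to 6. Of the red blood cell markers, 4 of 6 tested were higher (235 to 4494 CPM and 1338 to 12239 CPM), with Epb42, Rhag, Ermap and Klf1 at no more than 0.271 CPM. The 6 atrial markers, which bear on the label of whole heart, gave no single picture: Nppa had 405 to 1616 CPM, Dkk3 3.70 to 40.7 CPM and Myl4 4.97 to 9.75 CPM, while Myl7 was at no more than 2.00 CPM and Sln and Bmp10 at no more than 0.052 CPM. Over all genes tested, edgeR gave an adjusted p under 0.05 for 0.101% and an unadjusted p under 0.05 for 14.6%, 4.91% higher and 9.73% lower in ac-CYB5R3-KO hearts, and DESeq2 gave an adjusted p under 0.05 for 2.45%.

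None of the iron genes passed. Of the 10, 9 had enough counts to be tested and Hamp did not. At an adjusted p under 0.05, 0 of 9 differed with edgeR and 0 of 9 with DESeq2, and at an unadjusted p under 0.05 also 0 of 9 with either tool. The 95% interval of the fold change included no change for 9 of 9. Their median log2 fold change was -0.036, beside -0.0074 over all genes tested. The intervals differed widely in width, from 0.878- to 1.11-fold for Aco1 to 0.353- to 1.46-fold for Tfrc.

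**Figure D1:**
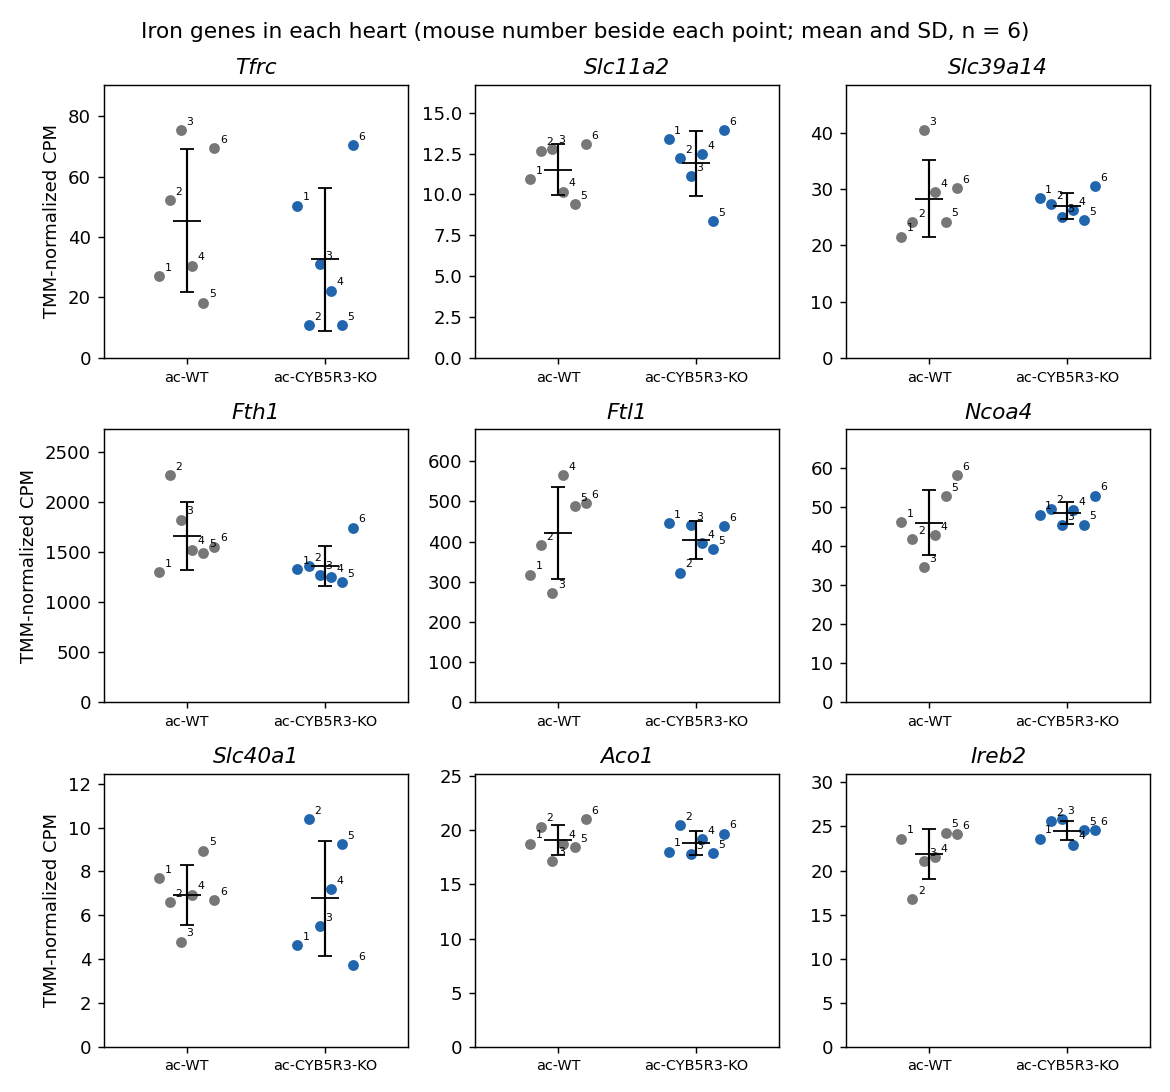
TMM-normalized CPM (linear axes from 0) of 9 iron genes in each of 6 ac-WT (grey) and 6 ac-CYB5R3-KO (blue) hearts, with the mouse number beside each point and the mean and SD in black. The groups overlap for every gene drawn; Fth1 is highest in ac-WT mouse 2 (2275 CPM), and Tfrc spans 10.8 to 75.3 CPM.

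Among the uptake genes, Tfrc varied most. It encodes the transferrin receptor (ENSMUSG00000022797, chr16:32609006-32632880). The level in ac-WT hearts was 18.3 CPM at the lowest, 41.3 at the median and 75.3 at the highest, and in ac-CYB5R3-KO hearts 10.8, 26.6 and 70.3 CPM. Mice 1 and 6 of the ac-CYB5R3-KO group were at 50.4 and 70.3 CPM, among the upper ac-WT values, while mice 2 and 5 were both at 10.8 CPM, below any ac-WT heart. Means were 45.4 ± 23.7 CPM (SD, n = 6) and 32.6 ± 23.7 CPM (SD, n = 6). The log2 fold change was -0.48 (SE 0.48, interval -1.50 to 0.55, edgeR adjusted p = 0.652). It was -0.14 without ac-WT mice 2 and 3, -0.86 without ac-CYB5R3-KO mouse 6 and -1.05 with the red blood cell marker mean as a covariate (adjusted p = 0.983, 0.425 and 0.319).

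Slc11a2 and Slc39a14, which move iron that is not bound to transferrin, hardly differed in their means. Slc11a2 encodes DMT1, the transporter that takes iron out of the endosome (chr15:100218329-100255503), and had 9.41, 11.8 and 13.1 CPM (lowest, median, highest) in ac-WT and 8.36, 12.3 and 13.9 CPM in ac-CYB5R3-KO hearts. The estimate was a log2 fold change of 0.050 (SE 0.13, interval -0.23 to 0.33, edgeR adjusted p = 0.879). Slc39a14 encodes ZIP14, a carrier of iron, zinc and manganese at the cell surface (chr14:70703274-70751232), with 21.5, 26.8 and 40.5 CPM in ac-WT and 24.5, 26.8 and 30.6 CPM in ac-CYB5R3-KO hearts. The highest value was that of ac-WT mouse 3, and all 6 ac-CYB5R3-KO hearts lay inside the ac-WT range. Its log2 fold change was -0.068 (SE 0.14, interval -0.37 to 0.23, edgeR adjusted p = 0.838), and its sign turned without ac-WT mice 2 and 3 (0.051).

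Fth1, the ferritin heavy chain that oxidizes iron on its way into the shell (ENSMUSG00000024661, chr19:10057193-10059582), had the smallest p of the 9 genes with edgeR, though not by the exact permutation test, where that was Ireb2. It was at 1301, 1542 and 2275 CPM in ac-WT and at 1202, 1306 and 1748 CPM in ac-CYB5R3-KO hearts. Mice 2 and 3 were the highest of the ac-WT group, at 2275 and 1826 CPM, and mouse 6 was the highest of the ac-CYB5R3-KO group, whose other 5 hearts lay between 1202 and 1365 CPM. Means were 1664 ± 343 CPM and 1363 ± 197 CPM (SD, n = 6 each). The log2 fold change was -0.29 (SE 0.16, interval -0.63 to 0.055, edgeR adjusted p = 0.420), which was -0.096 without ac-WT mice 2 and 3 and 0.030 with total counts as the scale. The exact permutation test over the 924 ways of dividing the hearts gave p = 0.0844. The 2 ac-WT hearts with the highest Fth1 were also those with the highest cardiomyocyte marker levels, and the part of these cells in the value was not tested.

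Ftl1, the ferritin light chain that helps form the iron core (ENSMUSG00000050708, chr7:52713314-52715254), had 272, 440.1 and 566 CPM in ac-WT and 323, 417 and 445 CPM in ac-CYB5R3-KO hearts. The 6 ac-CYB5R3-KO hearts all lay within the ac-WT range. The log2 fold change was -0.062 (SE 0.18, interval -0.44 to 0.31, edgeR adjusted p = 0.889), and 0.15 with total counts. Reads of Ftl1 could be shared with Ftl2, a closely similar gene that was counted at 1885 to 7163 reads per heart, or 14.4% to 21.5% of the sum of both in normalized counts. That share did not differ beyond the spread between hearts (18.4% ± 2.59 and 19.8% ± 0.832, SD, n = 6 each, exact permutation p = 0.225), and the sum was 518 ± 144 CPM and 504 ± 59.1 CPM (exact permutation p = 0.838). The ferritin pseudogene Fth-ps2 had at most 4 counts in a heart and the mitochondrial ferritin gene Ftmt had 0 counts in all 12.

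Ncoa4, the receptor that delivers ferritin to the lysosome to free its iron (chr14:32973051-32993041), had 34.5, 44.5 and 58.2 CPM in ac-WT and 45.3, 48.6 and 52.9 CPM in ac-CYB5R3-KO hearts. On the log2 scale the difference was 0.073 (SE 0.12, interval -0.18 to 0.32, edgeR adjusted p = 0.792), and -0.032 without ac-WT mice 2 and 3. All ac-CYB5R3-KO hearts lay inside the ac-WT range.

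Slc40a1, or ferroportin, the known exporter of iron from cells (ENSMUSG00000025993, chr1:45964915-45982439), had 4.80, 6.80 and 8.94 CPM in ac-WT hearts. In ac-CYB5R3-KO hearts the values reached further on both sides, at 3.72, 6.34 and 10.4 CPM. Only 2 of the 6 ac-CYB5R3-KO hearts lay inside the ac-WT range, 2 being above it and 2 below. The log2 fold change was -0.036 (SE 0.24, interval -0.54 to 0.47, edgeR adjusted p = 0.955), and 0.19 with total counts. Hamp, the gene of hepcidin (chr7:31727390-31729036), had 0 or 1 count in each heart, 2 counts in all over the ac-WT group and 2 over the ac-CYB5R3-KO group. A count of 0 allows up to 3 counts, or 0.0507 to 0.105 CPM depending on the heart, so a difference was not detectable at this depth. Hepatocyte markers summed to no more than 3.28 CPM in any heart.

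Aco1 encodes IRP1, a cytosolic aconitase that becomes an RNA-binding protein when it lacks its iron-sulfur cluster (chr4:40090114-40146042). It had 17.2, 18.7 and 21.0 CPM in ac-WT and 17.8, 18.6 and 20.4 CPM in ac-CYB5R3-KO hearts, all 6 of the latter inside the range of the former. Its log2 fold change was -0.019 (SE 0.079, interval -0.19 to 0.15, edgeR adjusted p = 0.925), and 0.24 with total counts, a scale under which the median of all genes stood at 0.26. Ireb2 encodes IRP2, which is degraded when iron is plentiful (chr9:54711562-54760341). It had 16.7, 22.6 and 24.3 CPM in ac-WT and 22.9, 24.6 and 25.8 CPM in ac-CYB5R3-KO hearts, with 4 of the 6 ac-CYB5R3-KO hearts above the highest ac-WT heart. The log2 fold change was 0.16 (SE 0.096, interval -0.044 to 0.37, edgeR adjusted p = 0.447). The exact permutation test gave p = 0.0411 for Ireb2, the lowest among the 10 genes and not adjusted for them. The lowest ac-WT value was that of mouse 2, and without ac-WT mice 2 and 3 the log2 fold change was 0.082.

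**Figure D2:**
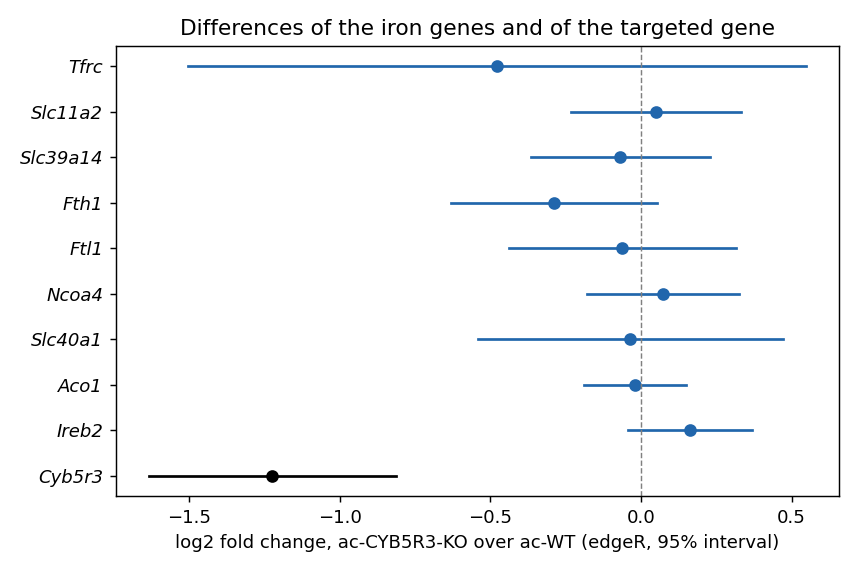
Log2 fold change of ac-CYB5R3-KO over ac-WT hearts for 9 iron genes (blue) and for the targeted gene Cyb5r3 (black), with points for the edgeR estimate and lines for the 95% interval. Every blue line crosses 0, from Aco1 (-0.19 to 0.15) to Tfrc (-1.50 to 0.55), and that of Cyb5r3 ends at -0.81.

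Per kilobase of exon, the levels spanned 3 orders of magnitude from ferritin to the carriers. In ac-WT hearts Fth1 stood at 1922 ± 396 CPM per kb and Ftl1 at 315 ± 85.0 CPM per kb (SD, n = 6 each). Ncoa4 followed at 10.3, Tfrc at 7.34, Ireb2 at 3.77, Aco1 at 3.67, Slc39a14 at 2.68, Slc40a1 at 2.05 and Slc11a2 at 1.81 CPM per kb. Of the neighbours in this order, Fth1 and Ftl1 did not overlap and neither did Ftl1 and Ncoa4, while all later neighbours overlapped in ac-WT hearts. In ac-CYB5R3-KO hearts the ranges of Ireb2 and Aco1, and of Aco1 and Slc39a14, were separate as well.

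**Figure D3:**
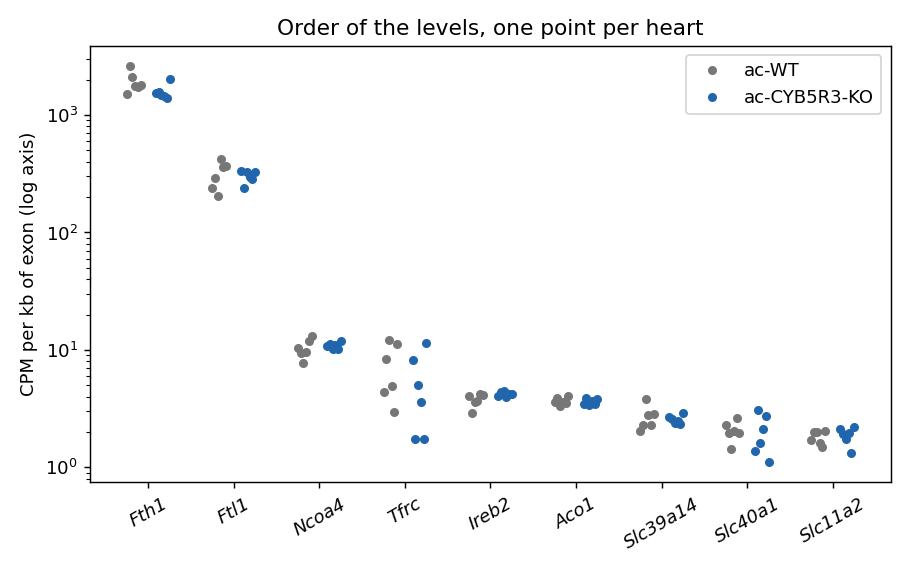
CPM per kb of exon on a log axis for 9 iron genes in order of their ac-WT mean, with 1 point per heart (ac-WT grey, ac-CYB5R3-KO blue). Fth1 and Ftl1 stand above the other 7 genes in every heart, and Tfrc is the most scattered.

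The genes also differed in how much they varied among hearts of 1 group. The coefficient of variation of Tfrc was 52.2% in ac-WT and 72.7% in ac-CYB5R3-KO hearts, larger than that of 88.3% and 99.0% of the genes tested. Slc40a1 reached 38.8% in ac-CYB5R3-KO hearts, above 89.6% of genes, against 19.7% in ac-WT hearts. Aco1 was at 7.22% and 5.90% and Ireb2 at 13.1% and 4.52%, beside medians over all genes of 24.9% in ac-WT and 15.7% in ac-CYB5R3-KO hearts. For 6 of 9 genes the ac-CYB5R3-KO hearts varied less than the ac-WT hearts, as the median gene did.

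Blood and macrophages handle much iron, so each of the 9 genes was set against the mean log2(CPM + 1) of red blood cell and of macrophage markers, 18 relations in all. Ftl1 followed the macrophage markers (r = 0.808, permutation p = 0.00174, adjusted p = 0.0313; rho = 0.860, adjusted permutation p = 0.00864; 12 hearts). Within groups r was 0.859 in ac-WT and 0.503 in ac-CYB5R3-KO hearts (exact permutation p = 0.0472 and 0.292), and without the 2 hearts farthest from the median marker level it was 0.767. Ncoa4 gave r = 0.755 (permutation p = 0.00351, adjusted p = 0.0316), with rho = 0.657 (adjusted permutation p = 0.219), and r = 0.814 and 0.622 within ac-WT and ac-CYB5R3-KO hearts (exact permutation p = 0.05 and 0.169) and 0.610 without the 2 farthest hearts. The remaining 16 relations had adjusted p of 0.592 or more for r. Fth1, the other ferritin chain, gave r = -0.204 with the macrophage markers over 12 hearts. Within groups its r had opposite signs, -0.571 in ac-WT and 0.838 in ac-CYB5R3-KO hearts (exact permutation p = 0.249 and 0.0972). Tfrc gave r = 0.108 with the red blood cell markers over 12 hearts. Within groups that r was -0.0033 in ac-WT and 0.723 in ac-CYB5R3-KO hearts (exact permutation p = 0.994 and 0.114).

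The macrophage markers themselves summed to 289.7 to 946 CPM in ac-WT and 510.0 to 804 CPM in ac-CYB5R3-KO hearts. Of 12 tested, 0 were higher and 2 were lower at an unadjusted p under 0.05, with a median log2 fold change of -0.076, beside backgrounds of 4.91% and 9.73%, and none was at 0 throughout. The number lower was 5 without ac-WT mice 2 and 3 and 12 with 1 surrogate variable. The share of all genes lower was not counted for these 2 fits, so the 2 numbers have no background beside them. The median log2 fold change over all genes was 0.016 and 0.014 in them. The ac-WT group split by its marker levels, with mice 2 and 3 the lowest and mice 4, 5 and 6 the highest of all 12 hearts, and these hearts set much of the range of the relation.

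**Figure D4:**
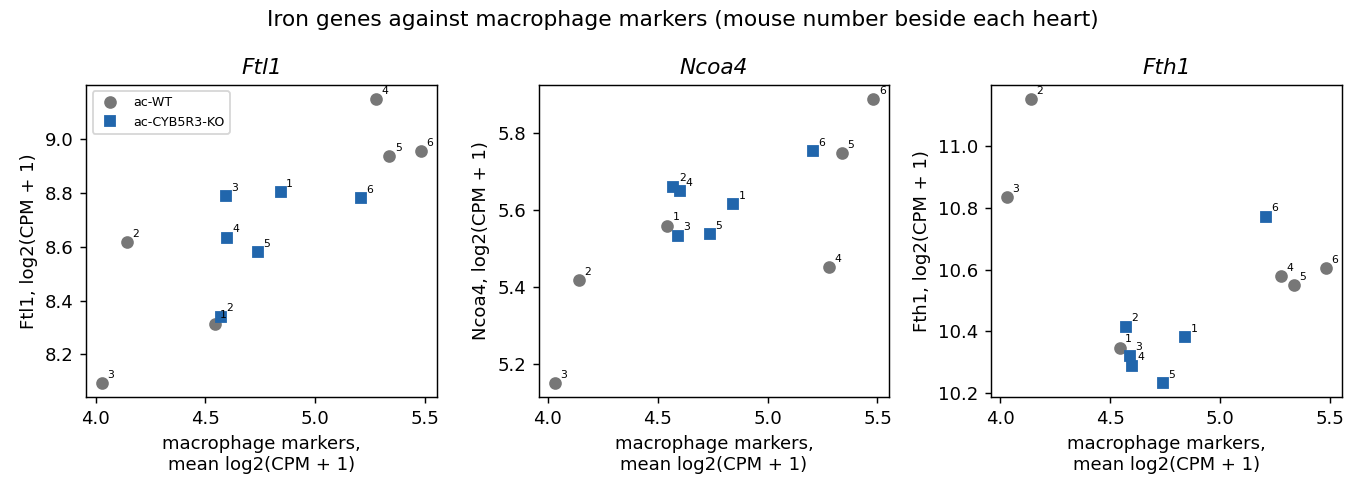
Log2(CPM + 1) of Ftl1, Ncoa4 and Fth1 against the mean log2(CPM + 1) of 12 macrophage markers, with 1 point per heart (ac-WT grey circles, ac-CYB5R3-KO blue squares, mouse number beside each). Over all 12 hearts Ftl1 (r = 0.808) and Ncoa4 (r = 0.755) climb with the markers, and Fth1 (r = -0.204) does not. Within groups Fth1 falls in ac-WT hearts (r = -0.571) and climbs in ac-CYB5R3-KO hearts (r = 0.838).

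As a description, the genes whose log2 CPM ran most alike over the 12 hearts were found for 3 of the iron genes. Tfrc was followed by Sv2a (r = 0.938), Rrp15 (0.902) and Scly (0.901), and r within each group was between 0.832 and 0.977. Fth1 was followed by Actg2 (0.982), C1qtnf4 (0.967) and Ccl24 (0.959), genes at means of 0.306 to 7.18 CPM. Slc40a1 was followed by Cryz (0.961), Gas1 (0.914) and Angptl7 (0.913). With 17847 genes ranked, high values at the top of such an order carry no test.

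The wider iron pathway was read in 5 lists. Of the 20 genes of iron entry, reduction and mitochondrial import, 18 were tested, 1 had an unadjusted p under 0.05 and was higher (the background was 4.91%), 2 were lower (background 9.73%) and 0 had an adjusted p under 0.05 with edgeR. The median log2 fold change was -0.033. With 1 surrogate variable 1 was higher and 6 were lower, and the share of all genes was not counted for that fit. Scara5, a receptor for ferritin that carries it into cells, had the largest difference of the list. It was at 4.82, 13.6 and 25.3 CPM (lowest, median, highest) in ac-WT hearts and at 1.16, 3.23 and 4.49 CPM in ac-CYB5R3-KO hearts, with no overlap. Its log2 fold change was -2.19 (SE 0.45), with an edgeR adjusted p of 0.102 and a DESeq2 adjusted p of 0.000184, and it was -1.87 without ac-WT mice 2 and 3 (edgeR adjusted p = 0.253). The edgeR adjusted p of Scara5 was 0.0383 with the red blood cell covariate, 0.0480 with no filter and 0.306 with 1 surrogate variable. Cacna1g, a T-type calcium channel gene, was lower (log2 fold change -0.61, edgeR adjusted p = 0.184, and -0.39 without ac-WT mice 2 and 3), and Mcoln1, a lysosomal channel that passes iron, was higher in every ac-CYB5R3-KO heart than in any ac-WT heart (9.52 to 11.3 against 11.3 to 14.9 CPM, log2 fold change 0.24, adjusted p = 0.260).

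Of the 16 genes of export, ferroxidases, chaperones and storage, 14 were tested, 0 were higher and 2 were lower at an unadjusted p under 0.05 (backgrounds 4.91% and 9.73%), and the median was -0.051. Without ac-WT mice 2 and 3, 1 was lower, and with total counts 0 were. The lower genes were Fbxl5, the iron-sensing subunit of the ligase that destroys IRP2 (log2 fold change -0.20, edgeR adjusted p = 0.334), and Mon1a, a trafficking gene linked to ferroportin (-0.28, adjusted p = 0.337). With total counts both values turned positive, at 0.060 and 0.033. Cp, the ferroxidase ceruloplasmin, differed by 0.37 on the log2 scale (SE 0.22, adjusted p = 0.459), within the spread.

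Of the 20 genes around hepcidin control, 17 were tested, 2 were higher (background 4.91%) and 2 were lower (background 9.73%), and the median was 0.20. Without ac-WT mice 2 and 3, 0 were higher and 2 were lower, as with 1 surrogate variable. Id1, a target of BMP signaling, was at 34.5, 56.9 and 94.5 CPM in ac-WT and 29.5, 31.3 and 44.5 CPM in ac-CYB5R3-KO hearts (log2 fold change -0.86, SE 0.21, edgeR adjusted p = 0.173, DESeq2 adjusted p = 0.0177), and differed by -0.52 without ac-WT mice 2 and 3 (edgeR adjusted p = 0.414) and by -0.42 with 1 surrogate variable (adjusted p = 0.510), and by -1.07 with the red blood cell marker mean as a covariate (adjusted p = 0.0385). Smad6, an inhibitor of the same pathway, and Bmpr2, a BMP receptor, had log2 fold changes of 0.31 and 0.26 (edgeR adjusted p = 0.249 and 0.282), and 0.24 and 0.16 without ac-WT mice 2 and 3. The other lower gene was Hjv, a BMP coreceptor (-0.42).

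Among 7 other transcripts known or reported to carry an IRE, 6 were tested, 1 was higher (background 4.91%) and 1 lower (background 9.73%), with a median of 0.088. The higher gene was Alas2, the heme synthesis enzyme of red blood cell precursors, at 1.37, 6.06 and 22.4 CPM in ac-WT and 5.88, 17.2 and 57.6 CPM in ac-CYB5R3-KO hearts (log2 fold change 1.62, SE 0.67, edgeR adjusted p = 0.286). With the red blood cell marker mean as a covariate the log2 value of Alas2 was -0.12. It was 2.36 without ac-WT mice 2 and 3 and 2.83 with 1 surrogate variable (edgeR adjusted p = 0.403 and 0.284). Without ac-CYB5R3-KO mouse 3 it was 1.17 (edgeR adjusted p = 0.457). The lower gene was Epas1, which encodes a hypoxia-inducible factor (-0.35, adjusted p = 0.307), and App, the amyloid precursor, had 0.31 (adjusted p = 0.483). Without ac-WT mice 2 and 3 these were -0.16 and 0.060.

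Iron-sulfur cluster assembly was the longest list. Of its 27 genes 26 were tested, 0 were higher and 4 were lower, beside a background of 9.73%, and the median was -0.11. Glrx5, a carrier of the finished cluster, had 37.2, 40.2 and 68.6 CPM (lowest, median, highest) in ac-WT and 27.5, 33.9 and 36.9 CPM in ac-CYB5R3-KO hearts, with no overlap (log2 fold change -0.48, SE 0.16, edgeR adjusted p = 0.206). Fdx1, a ferredoxin, had 26.9, 32.6 and 51.4 CPM and 20.3, 25.4 and 30.3 CPM (-0.45, adjusted p = 0.217). Cisd3, a mitochondrial iron-sulfur protein, had 34.7, 46.1 and 81.8 CPM and 31.8, 38.2 and 43.3 CPM (-0.42, adjusted p = 0.299). The other lower gene was Bola3 (-0.35). Without ac-WT mice 2 and 3 the values were -0.21 for Glrx5, -0.28 for Fdx1 and -0.13 for Cisd3, and 2 genes of the list, Glrx5 and Fdx1, had an unadjusted p under 0.05. With total counts 0 were lower and 1 was higher. Of the cardiomyocyte markers 5 of 12 were lower in the same hearts, 2 without ac-WT mice 2 and 3 and 3 with total counts. Their part in the iron-sulfur values was not tested.

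**Figure D5:**
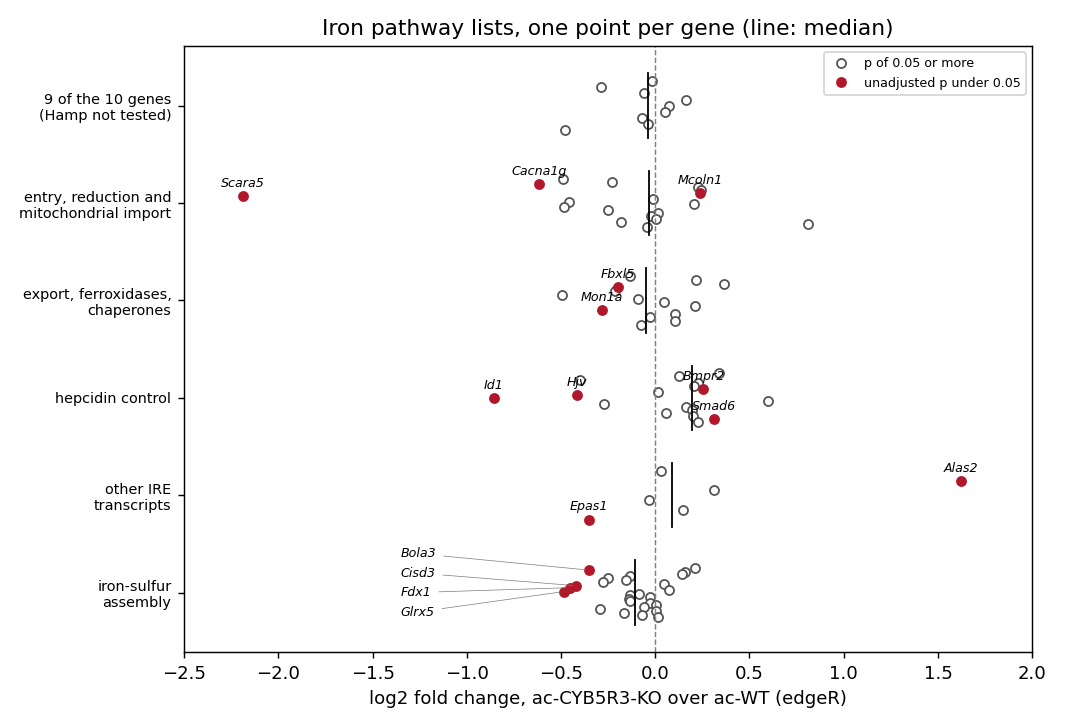
Log2 fold change of ac-CYB5R3-KO over ac-WT hearts for each tested gene of 6 lists, with 1 point per gene, filled red for an unadjusted edgeR p under 0.05, and a black line at the median of each list. The medians run from -0.11 (iron-sulfur assembly) to 0.20 (hepcidin control), and the farthest points are Scara5 (-2.19) and Alas2 (1.62).

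Ratios within a heart do not depend on the scale chosen between libraries. The ratio of Fth1 to Ftl1 counts was 4.25 ± 1.64 in ac-WT (2.70 to 6.71) and 3.40 ± 0.559 in ac-CYB5R3-KO hearts (2.90 to 4.23), a difference within the spread (SD, n = 6 each, exact permutation p = 0.344). Counts of Tfrc per 1000 of Fth1 were 26.9 ± 12.9 and 22.8 ± 13.9 (exact permutation p = 0.478). The ratio of Ireb2 to Aco1 was 1.15 ± 0.175 in ac-WT and 1.31 ± 0.0942 in ac-CYB5R3-KO hearts (exact permutation p = 0.0671, and 0.201 adjusted over the 3 ratios). Its ac-WT mean was lowered by 1 heart, mouse 2 at 0.823, while the other ac-WT hearts lay between 1.15 and 1.32. These ratios were chosen after the values of the genes had been seen.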

How the data were processed

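RNA from 12 whole hearts (6 ac-WT, 6 ac-CYB5R3-KO) had been made into stranded total RNA libraries and sequenced as unpaired reads. The authors deposited raw counts, a whole number of reads per Ensembl gene and heart, neither normalized nor filtered. The study's methods name trimming by fastq-mcf and Trimmomatic, STAR and mm9, while the submitters' processing notes name STAR, featureCounts and GRCm39, so the build behind the counts is uncertain. Strand setting and annotation are not given in the sources used here, so how reads shared by overlapping, antisense or duplicated genes were assigned is unknown. Coordinates, exon lengths and UTRs come from GENCODE on NCBIM37 (mm9) and serve to locate the genes only.

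The deposited counts were filtered by filterByExpr at a minimum count of 10, scaled by TMM factors and compared by edgeR 4.0.16 with its quasi-likelihood test, two-sided (R 4.3.3), with Benjamini-Hochberg adjustment over 17847 genes and with no covariate, on all 12 hearts. The study's own test, Cuffdiff on FPKM, needs reads. CPM are TMM-normalized, and 95% intervals come from the fit. For single values an exact permutation test, two-sided, was run over 924 divisions of the hearts (smallest p 0.00216), and relations by 100000 resamples over 12 hearts on log2(CPM + 1) (Python 3.11.15, scipy 1.17.1). Floors are 3 counts of a library and cover counting error only. The alternatives were DESeq2 1.42.0, limma-voom (limma 3.58.1), total counts, no filter, at least 10 counts in every library, the replicate block, 1 surrogate variable (sva 3.50.0), edgeR robust estimates, the red blood cell marker mean as a covariate, leaving out ac-WT mice 2 and 3, and leaving out each heart. Backgrounds at an unadjusted p under 0.05 are shares of all genes in the main edgeR fit. No such share was counted for the alternatives. The test scripts were tested on simulated data. The 10 genes, the pathway and marker lists and the alternatives were chosen with earlier results of these data known. Hbb-bt and Hbb-bs were not matched, so 10 of 12 red blood cell markers were used. A gene of the iron-sulfur list is not reported here and is left out of its counts. All 10 genes were named, and from each pathway list the 3 genes with the smallest p and any with an adjusted p under 0.05; Hjv, Bola3, Ftl2, Fth-ps2 and Ftmt were named after their values were seen. Labels number the mice of each group from 1 to 6 and name no litter. P-values measure the spread between these mice.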

Additional observations from a re-analysis of the deposited data

Results flagged for a closer look

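In 4 of 56 groups of 6 hearts examined, 1 heart lay far from the others by Dixon's criterion, where chance gives about 2.8. Fth1 stood at 1748 CPM in ac-CYB5R3-KO mouse 6 and between 1202 and 1365 CPM in the rest of its group, and without this heart its log2 fold change was -0.37. Id1 stood at 44.5 CPM in ac-CYB5R3-KO mouse 5, above 29.5 to 31.9 CPM in the others. The remaining 2 cases were both ac-WT mouse 2, the library with the lowest TMM factor. Fdx1 was at 51.4 CPM there (others 26.9 to 36.1), and the ratio of Ireb2 to Aco1 at 0.823 (others 1.15 to 1.32).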

How the results depend on the processing

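Of 22 alternatives, none gave an adjusted p under 0.05 for any of the 9 iron genes tested, and Tfrc and Ireb2 kept their sign in all 22. The number of genes with an adjusted p under 0.05, 18 with edgeR, was 437 with DESeq2, 2 with limma-voom, 8 with total counts, 35 with no filter, 3 with 1 surrogate variable, 7 without ac-WT mice 2 and 3, 434 with the red blood cell covariate, and 2 to 38 when each heart was left out. Iron genes with an unadjusted p under 0.05 numbered 1 (Fth1, log2 fold change -0.44) with the red blood cell covariate and 0 to 1 when a heart was left out, again Fth1, without ac-WT mouse 1 or ac-CYB5R3-KO mouse 6. With the replicate block, 2 genes had an adjusted p under 0.05 and 0 iron genes an unadjusted p under 0.05. Hearts of the same number correlated by 0.133 on average in their deviations (-0.160 to 0.360, 6 pairs), and hearts of different numbers by -0.025. These values do not settle whether the mice were paired. The labels name no litter, so the main fit did not pair them. Signs turned as follows. With total counts, Slc40a1 was 0.19, Fth1 0.030, Ftl1 0.15, Aco1 0.24, Slc39a14 0.21, Fbxl5 0.060 and Mon1a 0.033, since this scale raised the median of all genes by 0.26. With no filter Aco1 was 0.0053. With 1 surrogate variable Slc39a14 was 0.0062, Ncoa4 -0.095 and App -0.031. Without ac-WT mice 2 and 3, Slc39a14 was 0.051, Ncoa4 -0.032 and the Fth1 to Ftl1 log2 difference 0.067. With the red blood cell covariate, Slc40a1 was 0.23, Slc11a2 -0.010, Ftl1 0.0085, Aco1 0.014 and Alas2 -0.12. When each heart was left out, Slc40a1 ran from -0.20 to 0.089, Slc11a2 from -0.0016 to 0.13, Ftl1 from -0.15 to 0.040, Aco1 from -0.042 to 0.012 and Slc39a14 from -0.14 to 0.070. Where no value above shows it, the cause was not tested. Cyb5r3 kept its sign throughout (-1.49 to -1.03) and missed an adjusted p of 0.05 in 10 alternatives. Depth limits Hamp only; for the other genes the spread between mice does.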

Other observations

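Tfrc had the widest spread of the iron genes, and was set against 13 clock genes after this had been seen, as a heart's level of many transcripts follows the time of day. The largest correlation in size over the 12 hearts was 0.387 (Per2), and 0 of 13 had an adjusted p under 0.05 by r or by rho; the smallest unadjusted permutation p was 0.213 for r and 0.161 for rho.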
